A study of Mus musculus with 9 samples.

Results

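The Rab GTPase genes were followed across 3 populations of mouse thymic dendritic cells profiled by RNA-seq. Members were the rows of the deposited count table whose gene symbol is Rab followed by a number and at most a letter and a further digit, with Rab43 left out. This gave 58 genes of 55302 symbols, and 50 of them had enough counts to be tested. The 9 libraries were made from cells that were sorted from collagenase-digested thymi of C57BL/6 mice aged 8 weeks, and no genotype, allele or treatment is named for any of them. The 3 populations carry the names CD301b, SIRPa and XCR1 in the labels, with 3 libraries each. CD301b libraries are numbered 1, 3 and 4, and SIRPa and XCR1 libraries 1, 2 and 3. The study concerns how type 2 cytokines act on Sirpa-positive dendritic cells of the thymus. The sources used here do not give the full sort gates, and the design text names 3 mice without tying them to library numbers.

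Rab proteins are small GTPases that mark the membranes of the cell. Loaded with GTP by exchange factors (GEFs), a Rab sits on its organelle and recruits effectors such as motors and tethers, and GTPase-activating proteins (GAPs) switch it off, after which GDI extracts it from the membrane. In dendritic cells Rab proteins steer internalised antigen between recycling, lysosomal degradation and loading onto MHC molecules, and several have been linked to cross-presentation, the display of internalised antigen on MHC class I for which XCR1-bearing dendritic cells are known.

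Libraries held 20246092 to 25438864 counts, and Rab genes took 0.265% to 0.355% of them. Levels are CPM, counts divided by library size after TMM scaling, which adjusts each library's size to its composition. Genes of the sort followed the labels. Xcr1, a chemokine receptor that marks type 1 conventional dendritic cells, or cDC1, averaged 0.618 ± 0.402 CPM for CD301b, 9.60 ± 5.18 for SIRPa and 765.6 ± 96.7 for XCR1 libraries (SD, n = 3 each). Mgl2, which encodes CD301b, averaged 623.8 ± 58.2, 23.2 ± 5.31 and 1.82 ± 0.508 CPM in CD301b, SIRPa and XCR1 libraries. Sirpa averaged 645.3 ± 53.6, 773.2 ± 58.6 and 12.5 ± 3.05 CPM in CD301b, SIRPa and XCR1 libraries. The source label reads thymocytes while the cell type label reads dendritic cells; the dendritic cell gene Flt3 averaged 326.0 ± 21.0 CPM for CD301b, 251.4 ± 4.04 for SIRPa and 518.2 ± 46.2 for XCR1 libraries. Summed CPM of 16 thymocyte markers spanned 552.1 to 1125 in CD301b libraries, 775.6 to 1136 in SIRPa libraries and 256.6 to 1041 in XCR1 libraries.

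Most of the family was transcribed in all 3 populations. Between 46 and 53 of the 58 genes had at least 1 count in a library. Rab33a, Rab3c, Rab40b and Rab9b had no count in any library, where the limit that a count of 0 allows (3 counts) is 0.119 to 0.150 CPM, counting error only. Rab17, Rab25, Rab3b and Rab42 had too few counts to be tested. Summed over the family, the level was 2843 ± 182 CPM for CD301b, 2796 ± 59.7 for SIRPa and 3494 ± 226 for XCR1 libraries. Without Rab7b the sums were 2826 ± 180, 2750 ± 54.4 and 3084 ± 209 CPM in CD301b, SIRPa and XCR1 libraries.

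Levels per kb of exon set genes beside each other, with all annotated exons of a gene merged. Ranks depend on that annotation, as for Rab14 with 13589 bases, at 206.8 CPM but 15.2 CPM per kb in CD301b libraries. Per kb, Rab8b, which works in delivery to the cell surface, had the highest level in every population. Its level was 112.5 ± 12.6 CPM per kb for CD301b, 113.9 ± 8.28 for SIRPa and 140.7 ± 14.2 for XCR1 libraries. Rab7, the main Rab of late endosomes and lysosomes, came next at 90.2 ± 0.397, 76.1 ± 4.81 and 103.4 ± 9.74 CPM per kb in CD301b, SIRPa and XCR1 libraries. The third place differed. It was held by the early endosome gene Rab5c in CD301b (54.4 ± 5.89 CPM per kb) and SIRPa (52.0 ± 2.28) libraries, and by Rab7b in XCR1 libraries (88.7 ± 8.35), where Rab32 followed with 87.1 ± 4.68 CPM per kb. The top 4 in XCR1 libraries thus included 2 genes, Rab7b and Rab32, that were below the top 4 in the other populations.

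Differences between populations were tested with edgeR's quasi-likelihood test with Benjamini-Hochberg adjustment over 15417 genes, and a gene was called at an adjusted p under 0.05. Between CD301b and SIRPa, 1 of 50 tested Rab genes was called, or 2.00%, where 4.28% of all tested genes were called. That gene was lower in CD301b, as were 2.08% of all genes, while 2.20% of all genes were higher. Between CD301b and XCR1, 13 were called, or 26.0% against 22.6% of all genes, with 6 higher (12%, against 13.5% of all genes) and 7 lower (14.0%, against 9.12%) in CD301b. Between SIRPa and XCR1, 17 were called, or 34.0% against 24.7% of all genes, with 7 higher (14.0%, against 13.9%) and 10 lower (20%, against 10.7%) in SIRPa. The share called was thus near the background in the CD301b comparison with XCR1 and above it in the SIRPa comparison. Without SIRPa replicate 2 the SIRPa count was 11 (22%, against 19.1% of all genes) and without XCR1 replicate 1 it was 10 (20%, against 19.4%), near the background in both. The CD301b and SIRPa comparisons with XCR1 share the XCR1 libraries, so their results are given side by side and not as independent of each other.

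A difference of any kind among the 3 populations was found for 18 of the 50 genes, or 36.0%, against 25.8% of all genes. That count was lowest at 12 without SIRPa replicate 3 (24.0%, against 21.1%). Changes of at least 2-fold among called genes numbered 9 (18.0%, against 12.5% of all genes) for CD301b against XCR1 and 8 (16.0%, against 13.4%) for SIRPa against XCR1. The median log2 fold change of the 50 genes was 0.05 for CD301b against SIRPa, -0.03 for CD301b against XCR1 and -0.06 for SIRPa against XCR1, beside 0.01, 0.05 and 0.06 over all genes. The groups of 3 libraries did not overlap for 14 Rab genes between CD301b and SIRPa (28.0%, against 22.1% of all genes). They did not overlap for 22 between CD301b and XCR1 (44.0%, against 34.4%) and for 25 between SIRPa and XCR1 (50%, against 40.2%).

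**Figure D1:**
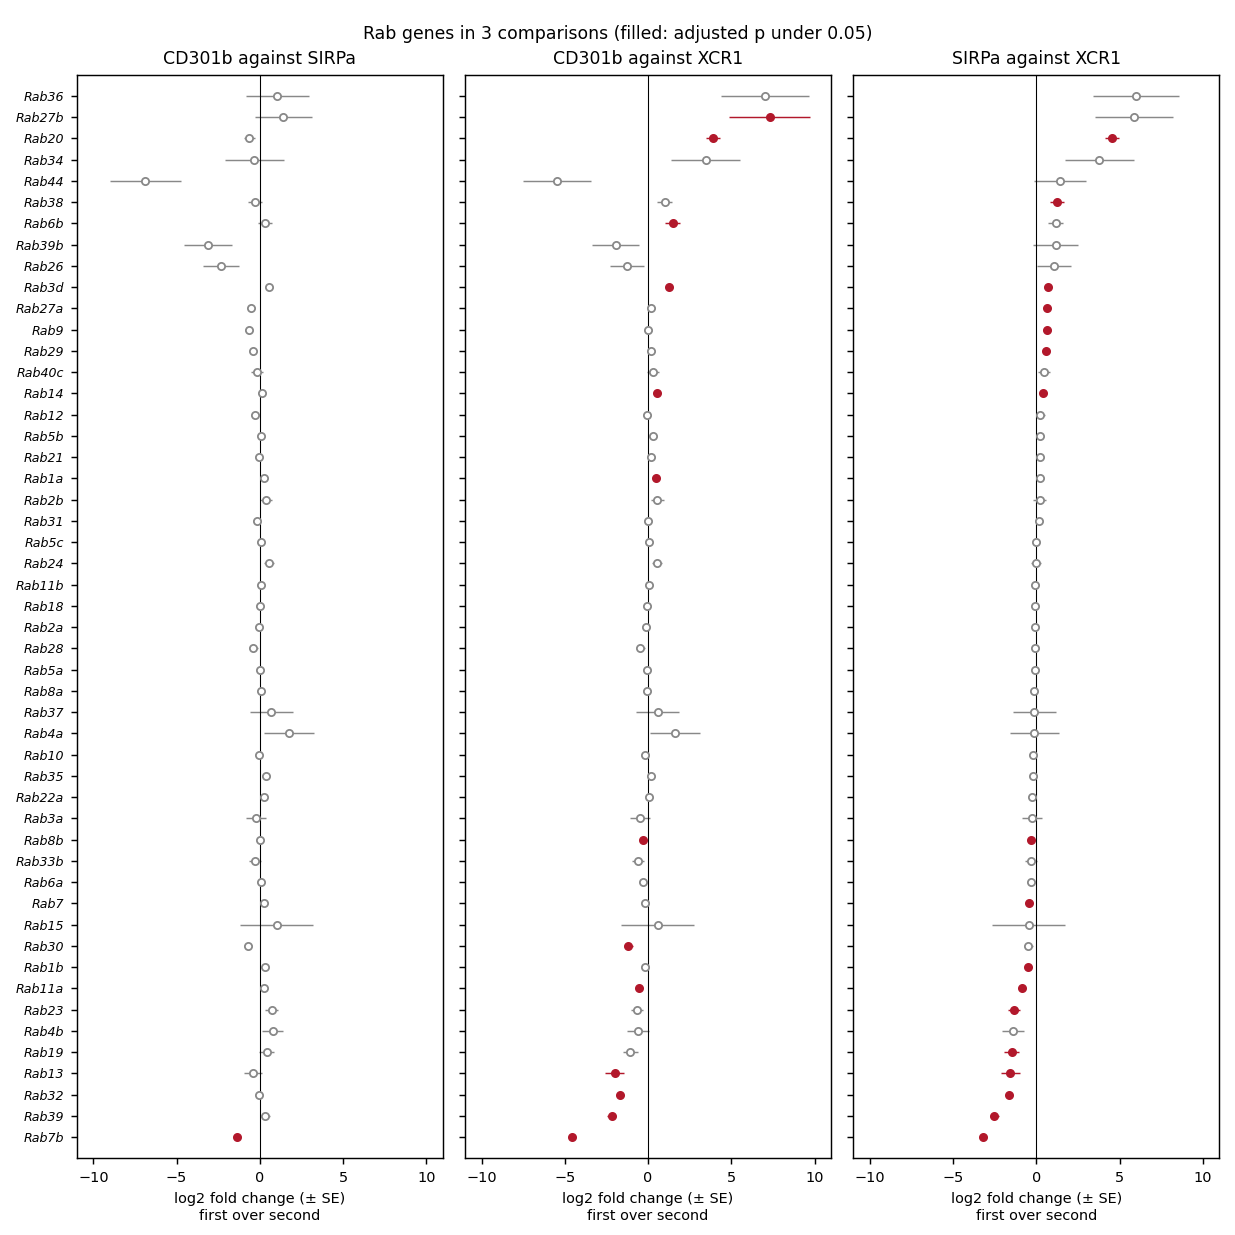
Log2 fold changes with standard errors of the 50 tested Rab genes in 3 panels, CD301b against SIRPa, CD301b against XCR1 and SIRPa against XCR1, from edgeR's fit; filled points have an adjusted p under 0.05. Among called genes Rab7b lies lowest in both comparisons with XCR1 (-4.56 and -3.17), Rab20 lies high in both (3.91 and 4.54), and the positions of genes with an all-zero group, such as Rab27b and Rab36 in XCR1, depend on the fit and are no bound.

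Among late endosome and lysosome genes, 6 of 8 were tested. In CD301b against XCR1, 2 were lower (33.3% called, against 22.6% of all genes), and in SIRPa against XCR1, 1 was higher and 3 lower (66.7%, against 24.7%). Their summed level was 294.1 ± 11.4 CPM for CD301b, 302.8 ± 12.9 for SIRPa and 746.1 ± 60.5 for XCR1 libraries. Rab7b, a relative of Rab7 that in mouse macrophages limits Toll-like receptor signalling by steering the receptors to lysosomes, made up most of that gap. Rab7b lies at chr1:131688695-131715439 on the plus strand of GRCm38.

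Rab7b had 20.1, 15.5 and 16.4 CPM in CD301b replicates 1, 3 and 4, 50.2, 46.7 and 39.8 CPM in SIRPa replicates 1 to 3, and 451.0, 404.9 and 374.3 CPM in XCR1 replicates 1 to 3. Every CD301b library lay below every SIRPa library, and every SIRPa library lay far below every XCR1 library. The log2 fold change was -4.56 ± 0.14 (SE) for CD301b against XCR1, a level 23.6-fold higher in XCR1 (adjusted p = 3.50e-15, edgeR). It was -3.17 ± 0.13 for SIRPa against XCR1, 9.0-fold higher in XCR1 (adjusted p = 2.35e-13), and -1.39 ± 0.13 for CD301b against SIRPa (adjusted p = 1.42e-06). The Rab7b call in all 3 comparisons held in each alternative tried. In bulk libraries, fewer cells of a type and less RNA per cell cannot be told apart.

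Rab7b and cDC1 markers were both highest in XCR1 libraries. The summed CPM of 10 cDC1 markers spanned 1886 to 2300 in CD301b libraries, 1636 to 1936 in SIRPa libraries and 8946 to 10730 in XCR1 libraries, with none at 0 throughout a population. Between the other populations the median sum was 2058 CPM in CD301b and 1653 CPM in SIRPa libraries, where Rab7b was lower in CD301b. Single markers were split by their means. Wdfy4 (1422 against 1006 CPM), Naaa, Itgae and Cd8a were higher in CD301b than in SIRPa libraries. Xcr1, Clec9a, Batf3, Irf8, Cadm1 and Tlr3 were lower in CD301b, as Rab7b was. As a percentage of the XCR1 mean, Xcr1 stood at 0.0808% in CD301b and 1.25% in SIRPa libraries, while Rab7b stood at 4.23% in CD301b and 11.1% in SIRPa libraries. The part of cDC1 among the sorted cells in these levels was not tested. Rab32 stood at 30.8% and 32%, and Rab39 at 21.8% and 17.6%, of the XCR1 mean in CD301b and SIRPa libraries.

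Rab39, a lysosomal and phagosomal Rab whose product has been linked to cross-presentation in mouse dendritic cells, had the same direction. It had 10.2, 4.94 and 6.16 CPM for CD301b, 5.82, 5.66 and 5.70 for SIRPa and 28.6, 37.2 and 32 for XCR1 libraries. CD301b and SIRPa libraries overlapped, and both lay below all XCR1 libraries. The log2 fold change was -2.19 ± 0.29 for CD301b against XCR1 (adjusted p = 6.02e-06) and -2.51 ± 0.29 for SIRPa against XCR1 (adjusted p = 1.20e-06). Its neuronal relative Rab39b was rare, at 0.279 ± 0.484 CPM for CD301b, 2.47 ± 1.53 for SIRPa and 1.10 ± 0.134 for XCR1 libraries, and passed no test in the fit of all libraries. Without CD301b replicate 3 it was called lower in CD301b than in SIRPa (adjusted p = 0.0246) and than in XCR1 (0.0108).

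Rab7 itself varied less. It averaged 235.3 ± 1.04 CPM for CD301b, 198.7 ± 12.5 for SIRPa and 269.8 ± 25.4 for XCR1 libraries, and was lower in SIRPa than in XCR1 (log2 fold change -0.44, adjusted p = 0.00269). CD301b against XCR1 gave -0.20, adjusted p = 0.195. Rab7 shares 98.4% identity over 622 bases with the copy Rab7-ps1, which had 77 counts in all against 45969 for Rab7. Rab9, which returns mannose-6-phosphate receptors to the Golgi, averaged 32.9 ± 5.92 CPM for CD301b, 51.6 ± 9.60 for SIRPa and 33.3 ± 11.9 for XCR1 libraries. Its call in SIRPa against XCR1 (log2 fold change 0.63, adjusted p = 0.0448) was lost in 7 of 15 alternatives, among them without SIRPa replicate 2 (0.0958) or 3 (0.229), without XCR1 replicate 1 (0.215) or 3 (0.126), and without CD301b replicate 1 (0.0523) or 3 (0.0606). Rab36 and Rab34, a Rab that positions lysosomes, were near the floor, with 0 Rab36 counts and 3 Rab34 counts over the 3 XCR1 libraries.

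Lysosome-related organelles are secretory or storage compartments derived from endosomes, such as melanosomes. Of 12 genes in this group, 10 were tested. CD301b against XCR1 gave 2 higher and 1 lower (30%, against 22.6% of all genes), and SIRPa against XCR1 gave 4 higher and 1 lower (50%, against 24.7%). Rab32, at chr10:10545002-10558265 on the minus strand, delivers cargo to melanosomes and in mouse macrophages restricts Salmonella. It had 85.0, 54.3 and 48.8 CPM for CD301b, 64.4, 66.9 and 64.2 for SIRPa and 192.8, 214.7 and 203.4 for XCR1 libraries. All 6 CD301b and SIRPa libraries lay below all XCR1 libraries, and CD301b replicate 1 was the highest of the 6. The log2 fold change was -1.70 ± 0.16 for CD301b against XCR1 (adjusted p = 7.08e-08) and -1.64 ± 0.16 for SIRPa against XCR1 (adjusted p = 1.15e-07).

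The close relatives of Rab32 went the other way in SIRPa. Rab38, which shares melanosome transport with Rab32, had 8.00, 5.49 and 7.97 CPM for CD301b, 13.5, 6.93 and 5.32 for SIRPa and 3.84, 3.75 and 3.18 for XCR1 libraries. All XCR1 libraries were below the others, and SIRPa replicate 1 stood above its group. Rab38 was higher in SIRPa than in XCR1 (log2 fold change 1.26 ± 0.43, adjusted p = 0.0363), but the call was lost in 8 alternatives, among them without SIRPa replicate 1 (0.359) or 2 (0.0541) and without XCR1 replicate 1 (0.0721), 2 (0.0727) or 3 (0.0913). CD301b against XCR1 gave 0.99 ± 0.43 (adjusted p = 0.107). Rab29, which recruits the kinase LRRK2, averaged 23.6 ± 2.69, 31.2 ± 6.58 and 20.5 ± 1.54 CPM in CD301b, SIRPa and XCR1 libraries. Its call in SIRPa against XCR1 (log2 fold change 0.61, adjusted p = 0.0383) was also lost in 8 alternatives, among them without SIRPa replicate 1 (0.200) or 3 (0.157) and without XCR1 replicate 1 (0.123), 2 (0.0649) or 3 (0.0656).

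Rab27a and Rab27b direct secretory lysosomes to the cell surface. Rab27a averaged 49.3 ± 12.7 CPM for CD301b, 70.1 ± 3.33 for SIRPa and 44.2 ± 6.92 for XCR1 libraries and was higher in SIRPa than in XCR1 (log2 fold change 0.66, adjusted p = 0.00697). Rab27b was found at 22, 33 and 9 counts in CD301b and 2, 11 and 9 in SIRPa, against 0 in all 3 XCR1 libraries. The CD301b level was at least 18.6-fold higher than the floor of 3 counts over the XCR1 group (adjusted p = 0.0360). That call was lost in 10 of the 14 alternatives that tested it, including the omission of any single library other than CD301b replicate 4 (adjusted p 0.0526 to 0.103). SIRPa against XCR1 gave adjusted p = 0.0773, and 0.0371 by DESeq2.

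Rab3d, which serves granule secretion in exocrine and mast cells, had 32, 39.6 and 33.5 CPM for CD301b, 22.8, 25 and 22.9 for SIRPa and 15.9, 14.6 and 13.7 for XCR1 libraries. The 3 populations formed 3 separate ranges, CD301b the highest and XCR1 the lowest. The log2 fold change was 1.25 ± 0.20 for CD301b against XCR1 (adjusted p = 6.19e-05) and 0.68 ± 0.20 for SIRPa against XCR1 (adjusted p = 0.0139, lost without SIRPa replicate 2 at 0.0635). CD301b against SIRPa gave 0.57 ± 0.20 (adjusted p = 0.125), so the order of those neighbours was not separated by the test. Rab44 varied widely within populations, with 0, 1 and 0 counts in CD301b, 85, 55 and 14 in SIRPa and 0, 0 and 55 in XCR1 libraries. It passed no test in the fit of all libraries, but CD301b against SIRPa (adjusted p = 0.0784) passed in 6 alternatives (0.00693 to 0.0422), CD301b against XCR1 (0.0608) in 4 (0.0154 to 0.0302) and SIRPa against XCR1 (0.609) without XCR1 replicate 3 (0.0159).

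**Figure D2:**
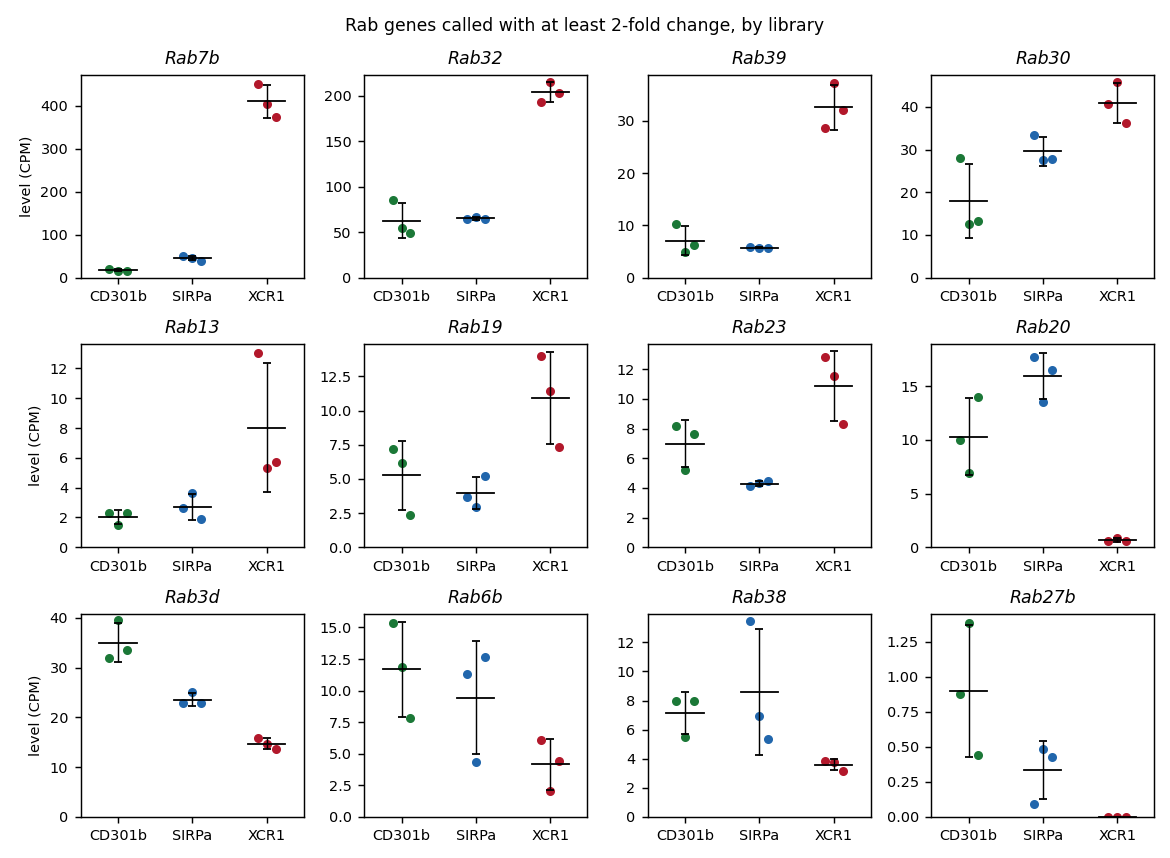
CPM on linear axes from 0 for the 12 Rab genes called with a change of at least 2-fold, by population, with 1 point per library, the mean as a bar and the SD as error bars. Rab7b, Rab32 and Rab39 have all XCR1 libraries above the other populations, and Rab20 has all XCR1 libraries below them.

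The early endosome group had 8 tested members and 1 call in each comparison with XCR1 (12.5%, against 22.6% of all genes for CD301b and 24.7% for SIRPa), both for Rab20. Rab20, at chr8:11453518-11478710 on the minus strand, acts in phagosome maturation in macrophages. It had 9.95, 6.91 and 14.0 CPM for CD301b, 17.7, 13.6 and 16.5 for SIRPa and 0.548, 0.902 and 0.578 for XCR1 libraries. All 6 CD301b and SIRPa libraries were far above the 3 XCR1 libraries, while CD301b and SIRPa overlapped.

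Rab20 was 15.1-fold higher in CD301b than in XCR1 (log2 fold change 3.91 ± 0.41, adjusted p = 2.85e-07) and 23.3-fold higher in SIRPa than in XCR1 (4.54 ± 0.42, adjusted p = 4.23e-08). Both calls held in each alternative tried. Macrophage markers were also lowest in XCR1 libraries, with summed CPM of 12 genes of 1891 to 2235 in CD301b libraries, 2659 to 3089 in SIRPa libraries and 189.3 to 205.5 in XCR1 libraries, where Marco was at 0. Monocyte markers summed to 712.9 to 834.2 CPM in CD301b libraries, 687.8 to 731.6 CPM in SIRPa libraries and 93.9 to 119.7 CPM in XCR1 libraries. Of these 7 genes, Nr4a1 and Treml4 instead had their highest mean in XCR1 libraries. In CD301b, SIRPa and XCR1 libraries Nr4a1 averaged 30.3, 30.4 and 43.6 CPM and Treml4 2.44, 5.28 and 22.75 CPM. The part of such cells in the Rab20 levels was not tested. Exons of Rab20 share 25.6% of their bases with E230013L22Rik on the opposite strand, and the sources used here do not say whether counting used strand.

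The other early endosome genes did not pass the test in any comparison. Rab5c, Rab5b and Rab5a, which govern fusion of early endosomes, averaged 119.3 ± 12.9, 63.8 ± 0.633 and 49.8 ± 4.77 CPM in CD301b libraries. They averaged 114.0 ± 4.998, 60.4 ± 1.28 and 48.4 ± 3.599 CPM in SIRPa and 113.5 ± 11.7, 51.5 ± 1.89 and 51.7 ± 11.3 CPM in XCR1 libraries. Rab21, an integrin-trafficking Rab, averaged 158.2 ± 23.0, 164.9 ± 18.8 and 141.1 ± 22.5 CPM in CD301b, SIRPa and XCR1 libraries. Rab22a, Rab31 and Rab24 likewise did not pass, and Rab24 shares 62.4% of its exonic bases with Prelid1 on the opposite strand, so that its level is uncertain.

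In the recycling and surface delivery group, 12 of 14 genes were tested. CD301b against XCR1 gave 1 higher and 3 lower, and SIRPa against XCR1 also gave 1 higher and 3 lower. Each made 33.3%, against 22.6% of all genes for CD301b and 24.7% for SIRPa. Rab14, which carries cargo between early endosomes, the Golgi and the surface, averaged 206.8 ± 2.43 CPM for CD301b, 189.9 ± 9.06 for SIRPa and 140.6 ± 6.57 for XCR1 libraries. It was higher than in XCR1 in both, with log2 fold changes of 0.56 (adjusted p = 2.59e-04) in CD301b and 0.43 (adjusted p = 0.00255) in SIRPa. Rab11a, the Rab of recycling endosomes, averaged 60.4 ± 9.90, 49.8 ± 6.39 and 88.3 ± 10.96 CPM in CD301b, SIRPa and XCR1 libraries. It was lower than in XCR1 in SIRPa (-0.83, adjusted p = 3.82e-04) and in CD301b (-0.55, adjusted p = 0.0130). The CD301b call was lost without CD301b replicate 4 (0.0543) and without XCR1 replicate 2 (0.0552).

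Rab8b averaged 532.6 ± 59.5 CPM for CD301b, 538.9 ± 39.2 for SIRPa and 665.9 ± 67.3 for XCR1 libraries. Its differences from XCR1 were small, at -0.32 in CD301b (adjusted p = 0.0315) and -0.31 in SIRPa (adjusted p = 0.0390), and were lost in 4 alternatives each. The CD301b call was lost without CD301b replicate 3 (0.156) and without XCR1 replicate 1 (0.0607) or 2 (0.165), and the SIRPa call without SIRPa replicate 2 (0.0872) or 3 (0.153) and without XCR1 replicate 1 (0.0722) or 2 (0.198). Rab13, an epithelial junction Rab, had 2.27, 1.51 and 2.30 CPM for CD301b, 2.60, 3.64 and 1.88 for SIRPa and 13.1, 5.32 and 5.73 for XCR1 libraries. XCR1 replicate 1 stood above the other XCR1 libraries, and no XCR1 library overlapped the rest.

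Rab13 gave log2 fold changes of -1.99 ± 0.57 for CD301b against XCR1 (adjusted p = 0.0140) and -1.57 ± 0.56 for SIRPa against XCR1 (adjusted p = 0.0461). The CD301b call was lost without XCR1 replicate 1 (0.175) or CD301b replicate 3 (0.0531). The SIRPa call was lost in 7 alternatives, among them without XCR1 replicate 1 (0.355) and without SIRPa replicate 1 (0.121), 2 (0.0574) or 3 (0.152). Rab8a, Rab10, Rab11b, Rab35, Rab12, Rab4a, Rab4b and Rab15 did not pass any test, with Rab10 at 167.0 ± 16.1, 171.5 ± 17.4 and 192.3 ± 19.7 CPM in CD301b, SIRPa and XCR1 libraries. Rab4b shares 65.0% of its exonic bases with Gm21983 on the same strand.

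In the ER and Golgi group, 9 of 10 genes were tested, and summed levels were 472.8 ± 40.01, 437.3 ± 13.9 and 475.1 ± 34.4 CPM in CD301b, SIRPa and XCR1 libraries. CD301b against XCR1 gave 2 higher and 1 lower (33.3%, against 22.6% of all genes), and SIRPa against XCR1 gave 1 lower (11.1%, against 24.7%). Rab1a and Rab1b carry cargo from the ER to the Golgi. Rab1a averaged 159.3 ± 6.49, 131.1 ± 12 and 113.5 ± 7.93 CPM in CD301b, SIRPa and XCR1 libraries and was higher in CD301b than in XCR1 (log2 fold change 0.49, adjusted p = 0.00254). Rab1b averaged 76.2 ± 16.3, 60.5 ± 3.20 and 85.6 ± 5.39 CPM in CD301b, SIRPa and XCR1 libraries and was lower in SIRPa than in XCR1 (-0.50, adjusted p = 0.0164), a call lost without SIRPa replicate 1 (0.0519) or 2 (0.0566) or XCR1 replicate 1 (0.0682). Rab2a, Rab2b, Rab6a, Rab18 and Rab33b passed no test, of which Rab2b shares 59.3% of its exonic bases with Gm43766 on the opposite strand.

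Rab30, a Golgi Rab at chr7:92741603-92844535 on the plus strand, had 28.0, 12.6 and 13.3 CPM for CD301b, 33.4, 27.5 and 27.8 for SIRPa and 40.6, 45.8 and 36.3 for XCR1 libraries. Every XCR1 library lay above every CD301b and SIRPa library, and CD301b replicate 1 lay within the SIRPa range. It was lower in CD301b than in XCR1 (log2 fold change -1.18 ± 0.25, adjusted p = 0.00142), with -0.47 ± 0.25 for SIRPa against XCR1 (adjusted p = 0.203). Rab6b, the Golgi Rab relative best known from neurons, had 15.3, 11.9 and 7.82 CPM for CD301b, 11.4, 4.30 and 12.7 for SIRPa and 6.08, 2.04 and 4.38 for XCR1 libraries. CD301b and XCR1 did not overlap, while SIRPa replicate 2 lay inside the XCR1 range. The CD301b difference from XCR1 was 1.49 ± 0.45 (adjusted p = 0.0214) and was lost without CD301b replicate 1 (0.106) or 3 (0.0504) or XCR1 replicate 2 (0.0925). SIRPa against XCR1 gave 1.18 ± 0.45 (adjusted p = 0.0645), which passed without SIRPa replicate 2 (0.0194) or XCR1 replicate 1 (0.0345).

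Among less studied genes, 5 of 6 were tested, with 2 lower in SIRPa than in XCR1 (40%, against 24.7% of all genes). Rab23, a brake on Hedgehog signalling, had 8.16, 5.19 and 7.63 CPM for CD301b, 4.11, 4.30 and 4.47 for SIRPa and 12.9, 11.5 and 8.29 for XCR1 libraries. XCR1 libraries were the highest, and SIRPa libraries lay below all CD301b libraries. SIRPa against XCR1 gave -1.34 ± 0.37 (adjusted p = 0.0101, lost without XCR1 replicate 1 at 0.0533). Rab19 had 7.16, 6.20 and 2.40 CPM for CD301b, 3.64, 2.94 and 5.23 for SIRPa and 14.0, 11.4 and 7.37 for XCR1 libraries. All XCR1 libraries were above the others. SIRPa against XCR1 gave -1.47 ± 0.45 (adjusted p = 0.0202), lost without SIRPa replicate 1 (0.0705) or 2 (0.0869) and without XCR1 replicate 1 (0.107) or 2 (0.0549).

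Between CD301b and SIRPa, 12 of the 50 tested Rab genes, Rab7b among them, had an unadjusted p under 0.05 (edgeR). The share of all genes under it is not given here, so that count has no background. Only Rab7b was called in the fit of all 9 libraries. Of the 49 other genes, 42 had a fitted change of less than 2-fold, and the 7 past it (Rab15, Rab26, Rab27b, Rab36, Rab39b, Rab44 and Rab4a) were all low genes. The single call rose to 2 without CD301b replicate 1 (4%, against 2.98% of all genes) and to 3 without CD301b replicate 3 (6%, against 2.66%). It rose to 2 without CD301b replicate 4 (4%, against 4.05%). Without XCR1 replicate 1, 2 or 3 the count was also 2 (4%, against 4.14%, 4.36% and 4.95%). Rab7b was among the calls each time. Genes gained in some alternative were Rab1b, Rab27a, Rab30, Rab39b, Rab44 and Rab9. A p that misses the threshold does not show that the 2 populations express these genes alike.

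Rab subfamilies hold closely related genes, and the balance of their members per kb is given as a description with no test. It depends on the annotated exon lengths. Rab7b made up 3.99 ± 0.53% of the summed Rab7 and Rab7b level for CD301b, 11.5 ± 1.41% for SIRPa and 46.2 ± 1.35% for XCR1 libraries. Rab32 made up 55.9 ± 4.99% of the Rab29, Rab32 and Rab38 level for CD301b, 51.5 ± 6.39% for SIRPa and 84.3 ± 0.164% for XCR1 libraries. In both subfamilies every XCR1 library stood apart from the other 6. Rab1a made up 55.9 ± 6.50%, 56.4 ± 2.85% and 44.2 ± 0.830% of the Rab1 level in CD301b, SIRPa and XCR1 libraries. Rab5c held a like share in all 3, at 68.7 ± 3.00%, 68.8 ± 1.42% and 70.1 ± 0.672% of the Rab5 level in CD301b, SIRPa and XCR1 libraries. Rab8b held 74.99 ± 2.12%, 76.2 ± 1.86% and 78.7 ± 0.716% of the Rab8 level in CD301b, SIRPa and XCR1 libraries.

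**Figure D3:**
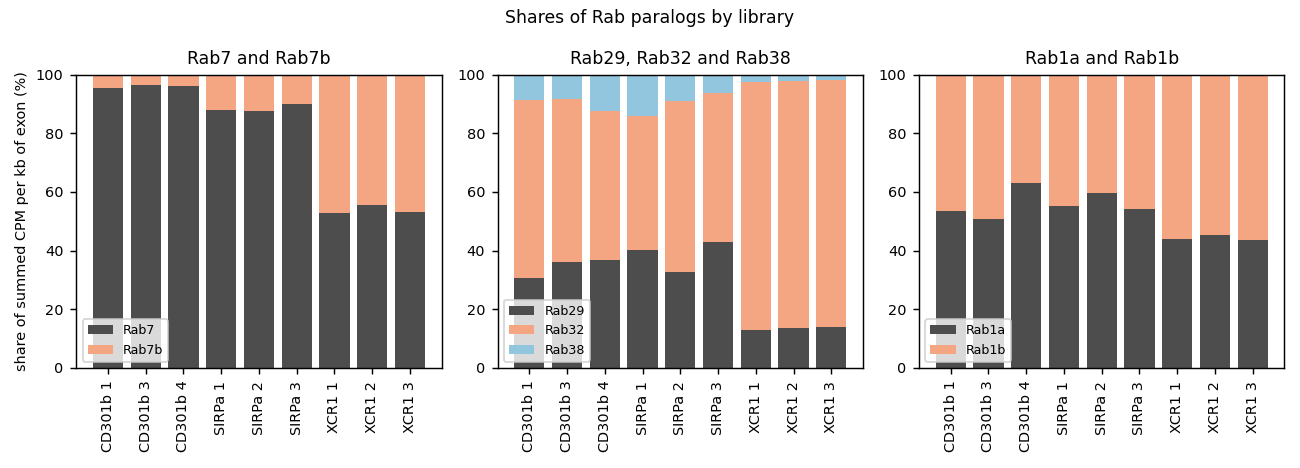
Stacked bars, 1 per library, of each paralog's share (%) in the summed CPM per kb of exon, for Rab7 with Rab7b, for Rab29, Rab32 and Rab38, and for Rab1a with Rab1b. Rab7b takes a mean of 3.99% for CD301b, 11.5% for SIRPa and 46.2% for XCR1 libraries, and Rab32 takes 55.9%, 51.5% and 84.3% in CD301b, SIRPa and XCR1 libraries.

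Promoter stretches of 4 genes, chosen after their values were seen, are shown as examples of both directions, Rab32 and Rab39 lower and Rab20 and Rab3d higher than XCR1 in both populations. Other called genes with a window, such as Rab13 and Rab14, are not shown. RefSeq promoter windows (GRCm38.p6, 250 bases before to 50 after a gene's start) were matched by symbol for 47 of the 58 genes, in 56 windows. All are 5′ to 3′ on the gene's strand, and the first 4 end where the first annotated exon begins or at the start itself. Rab32 is shown at chr10:10558266-10558457, Rab39 at chr9:53706233-53706482, Rab20 at chr8:11478711-11478890 and Rab3d at chr9:21918193-21918433, all on the minus strand, and the last line is 30 bases at chr8:11478669-11478698, all within an annotated exon of Rab20, with an E-box in capitals.
Rab32: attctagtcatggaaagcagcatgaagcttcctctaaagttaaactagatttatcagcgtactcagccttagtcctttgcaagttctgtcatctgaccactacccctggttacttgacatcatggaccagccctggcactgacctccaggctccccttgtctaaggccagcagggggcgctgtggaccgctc
Rab39: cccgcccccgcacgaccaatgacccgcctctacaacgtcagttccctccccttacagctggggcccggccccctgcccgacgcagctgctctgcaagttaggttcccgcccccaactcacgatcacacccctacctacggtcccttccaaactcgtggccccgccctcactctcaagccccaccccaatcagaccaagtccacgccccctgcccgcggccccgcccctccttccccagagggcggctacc
Rab20: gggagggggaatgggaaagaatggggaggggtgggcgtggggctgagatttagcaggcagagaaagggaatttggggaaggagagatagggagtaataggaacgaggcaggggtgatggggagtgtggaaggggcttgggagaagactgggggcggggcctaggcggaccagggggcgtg
Rab3d: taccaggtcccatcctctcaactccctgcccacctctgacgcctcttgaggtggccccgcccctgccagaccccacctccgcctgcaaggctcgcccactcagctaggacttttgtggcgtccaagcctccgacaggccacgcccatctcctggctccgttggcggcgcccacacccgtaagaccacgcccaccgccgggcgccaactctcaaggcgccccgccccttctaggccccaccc
Rab20 motif: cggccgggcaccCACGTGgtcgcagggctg

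The E-box CACGTG, bound by factors of lysosomal genes among others, was sought on both strands, and reads the same on each. It lay in 6 of 56 Rab windows, for Rab20, Rab21, Rab23, Rab24, Rab27a and Rab5a, and in 7.15% of all 32851 windows. The interferon-stimulated response element core lay in 1 Rab window, that of Rab19, and in 3.44% of all windows. The ETS-IRF composite element lay in 1, that of Rab11b, and in 2.72% of all windows. The windows of Rab32, Rab39 and Rab3d held none of the 3 motifs. The guanine and cytosine share of the stretches shown was 51.6% for Rab32, 68.8% for Rab39, 62.2% for Rab20 and 69.3% for Rab3d.

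Genes that load, switch off or read Rab proteins were counted in 6 lists holding 154 tested genes. CD301b against SIRPa gave 8 calls (3 higher, 5 lower), or 5.19% against 4.28% of all genes. CD301b against XCR1 gave 41 (23 higher, 18 lower), or 26.6% against 22.6%, and SIRPa against XCR1 gave 49 (28 higher, 21 lower), or 31.8% against 24.7%. The first count was lowest at 4, without CD301b replicate 3 (2.56%, against 2.66% of all genes), SIRPa replicate 1 (2.58%, against 2.00%) or SIRPa replicate 3 (2.55%, against 2.55%). It was 5 without SIRPa replicate 2 (3.18%, against 2.69%) and highest at 13 without XCR1 replicate 3 (8.33%, against 4.95%). Of 36 tested GEFs, 6 were higher (16.7%, against 13.5% of all genes) and 4 lower (11.1%, against 9.12%) in CD301b than in XCR1, and 11 were higher (30.6%, against 13.9%) and 5 lower (13.9%, against 10.7%) in SIRPa. Of 41 effectors, 9 were higher (22%) and 2 lower (4.88%) in CD301b than in XCR1, and 11 higher (26.8%) and 3 lower (7.32%) in SIRPa. Of 32 GAPs, 8 were higher (25%) and 6 lower (18.8%) in CD301b than in XCR1, and 4 higher (12.5%) and 3 lower (9.38%) in SIRPa. Median log2 fold changes for CD301b and SIRPa against XCR1 were 0.12 and 0.14 for GEFs, 0.14 and 0.17 for effectors and 0.05 and 0.19 for GAPs, beside 0.05 and 0.06 over all genes. Of 7 prenylation and GDI genes, 1 was lower in CD301b (14.3%) and 2 in SIRPa (28.6%) than in XCR1. Of 5 kinases and phosphatases of Rab proteins, 2 were lower in CD301b (40%) than in XCR1, and 1 was higher (20%) and 3 were lower (60%) in SIRPa.

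The kinase Lrrk2, which phosphorylates Rab proteins, averaged 96.8 ± 14.3 CPM for CD301b, 83.1 ± 13.3 for SIRPa and 317.7 ± 61.6 for XCR1 libraries. It was lower than in XCR1 in both, with log2 fold changes of -1.72 (adjusted p = 4.21e-08) in CD301b and -1.93 (adjusted p = 8.01e-09) in SIRPa. Ppm1m, related to the phosphatase that removes those phosphates, averaged 51.2 ± 16.1, 33 ± 3.16 and 107.4 ± 6.01 CPM in CD301b, SIRPa and XCR1 libraries. Ppm1h, a phosphatase of the same list, ran the other way, with 77.5 ± 8.15, 94.1 ± 19.2 and 67.7 ± 14.9 CPM in CD301b, SIRPa and XCR1 libraries. It was higher in SIRPa than in XCR1 (log2 fold change 0.48, adjusted p = 0.043, edgeR). Hps4, a subunit of the exchange factor of Rab32 and Rab38, had the direction of Lrrk2, with 23.5 ± 7.60, 24.3 ± 2.77 and 57.3 ± 12.8 CPM in CD301b, SIRPa and XCR1 libraries (adjusted p = 1.46e-04 and 2.12e-04 against XCR1, edgeR). Hps1, listed with Hps4 among the GEFs, was instead lowest in XCR1. Its levels were 32.8 ± 1.20, 36.3 ± 0.541 and 25.1 ± 3.20 CPM in CD301b, SIRPa and XCR1 libraries. Rab11fip4, an effector of Rab11, averaged 17.5 ± 5.65, 33.03 ± 3.78 and 79.6 ± 7.11 CPM in CD301b, SIRPa and XCR1 libraries, with a log2 fold change of -2.18 (adjusted p = 6.05e-08) for CD301b against XCR1 and -0.92 (adjusted p = 0.00949) for CD301b against SIRPa.

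Other regulators ran the opposite way. Rab3il1, an exchange factor for Rab8 and Rab3, averaged 115.8 ± 16.8 CPM for CD301b, 91.95 ± 4.77 for SIRPa and 3.34 ± 1.52 for XCR1 libraries (adjusted p = 3.93e-10 and 7.66e-10 against XCR1). Rin2, an exchange factor for Rab5, averaged 88.7 ± 7.18, 102.5 ± 7.38 and 4.29 ± 2.59 CPM in CD301b, SIRPa and XCR1 libraries (3.29e-06 and 2.27e-06). The GAPs Tbc1d16 and Evi5 were also higher, Tbc1d16 averaging 104.7 ± 7.47, 89.5 ± 9.08 and 15.5 ± 3.49 CPM in CD301b, SIRPa and XCR1 libraries. Myrip, which links Rab27 to myosin motors, had 593 counts in CD301b and 137 in SIRPa against 0 in XCR1 libraries, so its level was at least 174.7-fold higher in CD301b and at least 43.5-fold higher in SIRPa than the floor of 3 counts over the group. Myo5a, the motor that moves Rab27a-bound organelles, averaged 316.7 ± 27.4, 316.6 ± 7.25 and 146.7 ± 11.9 CPM in CD301b, SIRPa and XCR1 libraries.

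A further set of regulators differed between CD301b and SIRPa. Rin3, an exchange factor for Rab5 and Rab31, averaged 262.5 ± 8.58 CPM in CD301b libraries and 131.0 ± 13.0 in SIRPa libraries (log2 fold change 1.0, adjusted p = 5.63e-05), and 221.6 ± 45.8 in XCR1 libraries. Gdi2, which extracts Rab proteins from membranes, averaged 955.0 ± 65.7 CPM in CD301b libraries and 697.3 ± 63.2 in SIRPa libraries (0.45, adjusted p = 0.00759). Tbc1d4, a GAP for Rab10, averaged 367.9 ± 52.5 CPM in CD301b libraries and 626.3 ± 68.0 in SIRPa libraries (-0.77, adjusted p = 4.49e-04). Among 33 tested SNARE genes, which fuse membranes, 3 were lower in CD301b than in XCR1, and 1 was higher and 5 lower in SIRPa than in XCR1, or 9.09% against 22.6% of all genes and 18.2% against 24.7%. Stx7, the late endosome SNARE, was at 134.4 ± 9.74 CPM for CD301b, 140.1 ± 6.96 for SIRPa and 133.0 ± 10.4 for XCR1 libraries and did not pass. Stx17, an autophagosome SNARE, averaged 24.4 ± 2.15, 22.7 ± 3.30 and 56.0 ± 10.5 CPM in CD301b, SIRPa and XCR1 libraries and was lower than in XCR1 in both (adjusted p = 5.74e-05 and 1.96e-05).

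**Figure D4:**
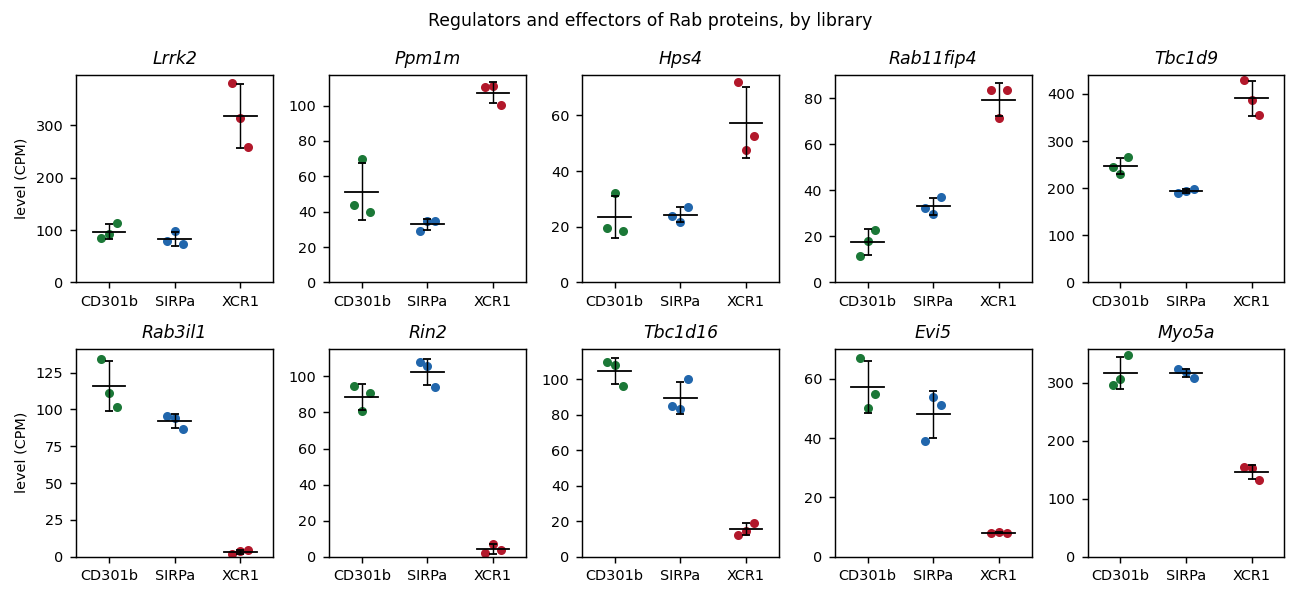
CPM on linear axes from 0 for 10 regulators and effectors of Rab proteins, by population, with 1 point per library, the mean as a bar and the SD as error bars. In the upper row (Lrrk2, Ppm1m, Hps4, Rab11fip4, Tbc1d9) all XCR1 libraries lie above the others, and in the lower row (Rab3il1, Rin2, Tbc1d16, Evi5, Myo5a) all lie below them.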

How the data were processed

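RNA was measured in 9 libraries, 3 of each population, and the samples were grouped by title. The authors deposited whole-number counts per gene symbol, and a table of log2 CPM values that was not used for tests. HISAT2 and featureCounts are among the tools named for genome mm10 in the submitters' processing notes, per the labels; the sources used here give no version, annotation or strand setting. Library kits were stranded total RNA, per the labels' protocols. Symbols turned into dates (24 rows, 0.125% to 0.187% of counts) stayed out. Genes were filtered with filterByExpr (minimum count 10) and scaled by TMM. One edgeR 4.0.16 quasi-likelihood fit (R 4.3.3, robust) of all 9 libraries and 3 groups gave each comparison, Benjamini-Hochberg adjusted over 15417 genes, threshold 0.05, two-sided. Standard errors were taken from the F statistic. Fold changes are on the log2 scale. The p-values reflect only how far these libraries vary, which may be technical, since nothing ties libraries to separate mice. Depth was 20246092 to 25438864 counts, and counting limits cover counting error only.

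The script was tested on simulated data. Gene positions and exon lengths came from GENCODE M21 (GRCm38), and promoters from RefSeq (GRCm38.p6). Values per library are given for members called with at least 2-fold change; from 6 lists of regulators, up to 3 called genes per direction and comparison and the most abundant gene that did not pass. Members and lists were chosen with earlier results of these data known. Alternatives were DESeq2 1.42.0, limma-voom (limma 3.58.1), DESeq2 size factors, no filter, a replicate block, only the 6 libraries compared and leaving out each library.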

Additional observations from a re-analysis of the deposited data

How the results depend on the processing

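Of 31 calls of a Rab gene in a comparison, 17 held in all 15 alternatives and 14 were lost in at least 1; 0 reversed. Of 119 that did not pass, 12 were gained in some. For CD301b against SIRPa the Rab count was 1 (2%, against 4.28% of all genes). It was 2 by DESeq2 (4%, against 5.89%) and 3 with only the 6 libraries compared (6.12%, against 6.2%). Without a filter on low counts it was 5 (9.26%, against 3.7%), above the share of all genes and not below it. The regulator count was 8 (5.19%, against 4.28%). It was 13 by DESeq2 (8.44%, against 5.89%), 15 by limma-voom (9.74%, against 5.79%) and 14 with only the 6 libraries (9.27%, against 6.2%). Leaving out 1 library gave 1 to 3 Rab calls (2% to 6%) for CD301b against SIRPa and 10 to 13 (20% to 26%) for CD301b against XCR1. It gave 10 to 17 (20% to 34%) for SIRPa against XCR1 and 12 to 17 (24% to 34%) for any difference. The 10 calls for SIRPa against XCR1, without XCR1 replicate 1, were 20% against 19.4% of all genes. Regulator calls numbered 4 to 13 (2.55% to 8.33%), 33 to 41 (21.2% to 26.3%) and 37 to 51 (23.6% to 32.7%) in the 3 pairwise comparisons. Over all genes the shares called were 2.00% to 4.95%, 17.7% to 19.8% and 18.4% to 24.6% in these comparisons, and 20.4% to 25.1% for any difference. Whether equal replicate numbers mean a shared mouse is not stated in the sources used here. Deviations of same-numbered libraries from their population means had correlations of 0.003 to 0.041, and those of differently numbered libraries -0.067 to 0.048. Correlations this small cannot decide whether libraries were paired. With the replicate block, Rab calls were 1 (2%, against 4.28% of all genes) for CD301b against SIRPa and 11 (22%, against 18.9%) for CD301b against XCR1. They were 15 (30%, against 26.2%) for SIRPa against XCR1 and 18 (36%, against 26.4%) for any difference. Regulator calls with the block were 7 (4.55%), 40 (26%) and 54 (35.1%) in the 3 pairwise comparisons. Rab11a in CD301b against XCR1 was among the calls lost (adjusted p = 0.134). The causes were not tested. Depth limits genes with few counts: Rab17, Rab25, Rab3b and Rab42 could not be tested, and the tested genes Rab15, Rab36, Rab27b and Rab34 had 64 to 97 counts in all.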
